A study of Mus musculus with 12 samples.

Results

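The genes described here are 10 components of the circadian clock, Arntl, Clock, Npas2, Per1, Per2, Per3, Cry1, Cry2, Nr1d1 and Dbp. They were taken from a list of symbols, which was chosen with earlier results of these data known. Each symbol matched 1 of the 36131 genes of the RNA-seq table of P18 mouse retina. All 10 had enough counts to be tested. The 12 animals were wildtype C57BL/6J mice in 3 groups of 4. RA-PBS mice (animals 1 to 4) stayed in room air and received placebo (PBS). O2-PBS mice (animals 5 to 8) were kept with nursing mothers in 75% O2 from P7, returned to room air at P12 and received placebo. O2-IC100 mice (animals 9 to 12) had the same oxygen exposure and received the anti-ASC antibody IC100 (ASC is an adaptor protein of inflammasomes) at 10 µg/g by intraperitoneal injection. Injections of all 3 groups were given on P12, P14 and P16, and the oxygen schedule is that of oxygen-induced retinopathy, in which new vessels grow into the vitreous after the return to room air. The mothers were rotated between oxygen and room air, and none of the 12 mice sequenced here received IC100 in room air, so its RNA effects are measured only after hyperoxia. Neither the labels nor the methods give an hour of collection, a light schedule or an order of collection, and whether the hour differed between the groups was not tested.

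The mammalian clock is a set of transcriptional feedback loops. ARNTL (also called BMAL1) pairs with CLOCK, or with its relative NPAS2, and activates E-box promoters, among them those of the Per and Cry genes, whose proteins return to repress the pair. NR1D1 (REV-ERB alpha) represses Arntl through ROR elements, and DBP, an output factor that binds D-boxes, is itself driven by ARNTL and CLOCK. The retina holds a clock of its own, set by light, that takes part in dopamine and melatonin rhythms, and in tissues with a running clock Arntl peaks in nearly the opposite phase to Nr1d1, Dbp and the Per genes.

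Promoter windows that held a match are shown for 5 members. E-boxes, D-boxes and ROR elements are the sites through which the measured genes are known to act on each other. RefSeq promoter windows on build GRCm38.p6, each of 300 bases that end 50 bases past a transcription start, matched 9 of the 10 members (not Per2) in 13 windows. Both strands were searched for the E-box CACGTG, the E-prime box CACGTT, the D-box TTATGTAA, the cAMP response element TGACGTCA and the ROR element. No match printed here overlaps another. Windows are Per1 at chr11:69098699-69098998 (plus strand), Cry1 at chr10:85185005-85185304 (minus strand), Nr1d1 at chr11:98775328-98775627 (minus strand), Per3 at chr4:151044616-151044915 (minus strand) and Arntl at chr7:113207261-113207560 (plus strand). They are printed 5′ to 3′ along the gene, with matches in capitals, an E-prime box appearing as AACGTG where it lies on the other strand.
Per1: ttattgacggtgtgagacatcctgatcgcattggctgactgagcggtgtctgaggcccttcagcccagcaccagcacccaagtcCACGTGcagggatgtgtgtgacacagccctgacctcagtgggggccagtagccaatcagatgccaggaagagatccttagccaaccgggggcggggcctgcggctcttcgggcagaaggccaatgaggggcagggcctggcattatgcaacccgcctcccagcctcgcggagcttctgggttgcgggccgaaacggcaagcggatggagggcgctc
Cry1: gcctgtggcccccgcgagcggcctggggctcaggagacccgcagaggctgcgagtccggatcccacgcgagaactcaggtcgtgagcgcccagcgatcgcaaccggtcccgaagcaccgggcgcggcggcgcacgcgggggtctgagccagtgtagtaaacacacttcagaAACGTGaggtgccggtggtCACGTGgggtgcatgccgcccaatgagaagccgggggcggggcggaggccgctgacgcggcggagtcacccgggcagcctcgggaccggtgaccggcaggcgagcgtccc
Nr1d1: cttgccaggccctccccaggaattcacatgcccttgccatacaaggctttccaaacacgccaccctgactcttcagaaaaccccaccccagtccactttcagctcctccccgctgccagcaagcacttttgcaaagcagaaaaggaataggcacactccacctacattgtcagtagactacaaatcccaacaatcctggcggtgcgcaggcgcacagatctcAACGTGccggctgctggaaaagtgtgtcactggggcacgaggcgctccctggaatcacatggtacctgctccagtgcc
Per3: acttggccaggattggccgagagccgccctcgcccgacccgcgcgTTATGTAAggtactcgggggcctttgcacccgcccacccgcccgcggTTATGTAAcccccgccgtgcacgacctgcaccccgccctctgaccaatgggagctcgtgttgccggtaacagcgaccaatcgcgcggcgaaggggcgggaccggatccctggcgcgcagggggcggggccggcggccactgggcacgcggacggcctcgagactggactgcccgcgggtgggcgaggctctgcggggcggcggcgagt
Arntl: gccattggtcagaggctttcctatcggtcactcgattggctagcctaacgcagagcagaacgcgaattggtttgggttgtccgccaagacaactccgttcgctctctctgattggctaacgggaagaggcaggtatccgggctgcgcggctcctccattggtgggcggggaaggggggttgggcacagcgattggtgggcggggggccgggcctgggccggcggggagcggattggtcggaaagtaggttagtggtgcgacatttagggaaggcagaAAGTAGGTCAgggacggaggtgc

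The Per1 window held 1 E-box, 166 to 161 bases before the start, and the other Per1 window held no match. Cry1 had an E-box 60 to 55 bases and an E-prime box 79 to 74 bases before its start. Nr1d1 and Cry2 had an E-prime box each, at 28 to 23 and at 166 to 161 bases before the start. Per3 had 2 D-boxes, at 205 to 198 and 158 to 151 bases before the start, and the second Arntl window had a ROR element 27 to 36 bases after it. The windows of Npas2, Clock and Dbp and the first Arntl window held no match. An E-box was found in 2 of the 9 members with a window, beside 8.09% of the 27025 genes with a window that was searched. The E-prime box was in 3 members (5.44% of genes), the D-box in 1 (1.11%), the ROR element in 1 (0.918%) and the cAMP response element in 0 (2.03%). The windows searched numbered 32851, with those of 1 chromosome left out. Of these, 7.15% held an E-box, 4.68% an E-prime box, 0.938% a D-box, 0.773% a ROR element and 1.79% a cAMP response element. A match is a sequence only, and binding was not measured in these retinas.

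Libraries held 14907143 to 24438082 counts. O2-IC100 animal 10 stood apart, with 58.9% of its counts from the 18 lens markers (crystallins, Mip, Bfsp1, Bfsp2 and Lim2) and 0.348% from the 10 rod markers, against 4.10% to 5.11% rod counts in the other 11 libraries. Lens markers also made up 1.25%, 4.58% and 1.43% of counts in RA-PBS animals 2, 3 and 4, and at most 0.0159% in the remaining 8 libraries. RA-PBS animal 1 had the fewest genes with a count (17658, against 18392 in animal 10 and 19865 to 21138 elsewhere). Each test is therefore given with all 12 animals and with the other 11, called the ordinary libraries here. These are bulk tissue measurements, in which fewer cells of a type and less RNA per cell cannot be told apart.

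Clock gene RNA differed far more between genes than between groups. Per kilobase of exon, RA-PBS retinas held 70.5 ± 7.58 RPKM (SD, n = 4) of Dbp and 51.8 ± 10.6 RPKM of Nr1d1, followed by Arntl at 30.1 ± 2.16 and Cry2 at 28.7 ± 3.93 RPKM. Per3 (18.8 ± 4.01 RPKM), Per1 (17.1 ± 3.19), Cry1 (15.2 ± 1.78) and Clock (14.2 ± 1.93) came next. Per2 stood at 5.91 ± 1.06 RPKM and Npas2 at 0.657 ± 0.177 RPKM. Arntl and Cry2 overlapped over the 4 animals, as did the 4 genes from Per3 to Clock, and no other neighbours in this order did. The activators ARNTL and CLOCK are thus joined by little Npas2 RNA, which ran at 1.37 to 3.77 CPM (counts scaled to library size by TMM) in all 12 retinas.

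**Figure D1:**
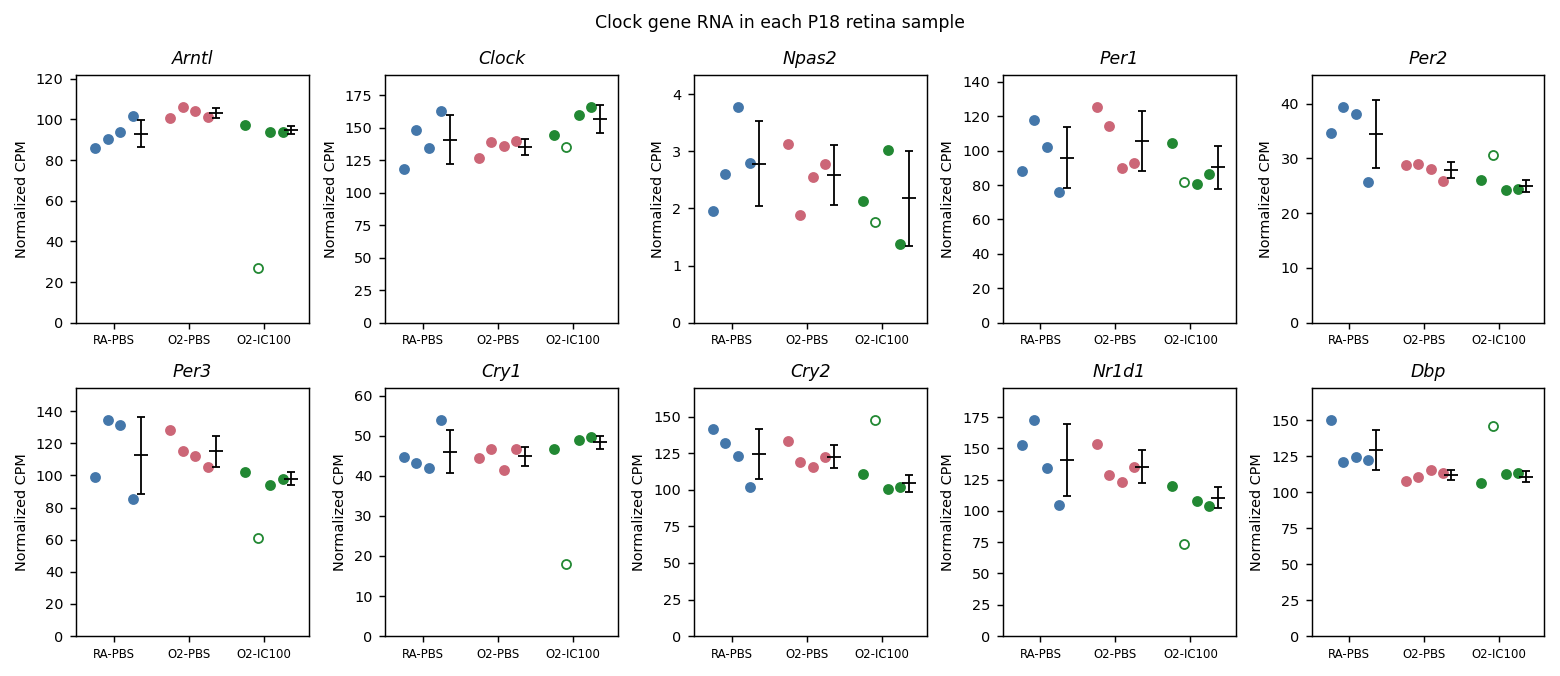
TMM-normalized CPM of the 10 clock genes (y axes, each starting at 0) in every animal of the RA-PBS, O2-PBS and O2-IC100 groups (x axes). Filled points are animals, the open point is the lens-rich O2-IC100 animal 10, and the black marks are mean ± SD without it; animal 10 is far below its group in Arntl (27.1 CPM) and Cry1 (17.9 CPM), and the groups overlap in most panels.

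No clock gene passed the thresholds (fold change of at least 1.5, p under 0.05 and adjusted p under 0.1) in any of the 3 comparisons. With 12 animals, edgeR called 0 of 10 members between O2-PBS and RA-PBS, beside 0.807% of the 16489 genes tested, and 0 of 10 in each of the other two comparisons, beside 0.0% of genes. With 11 animals the count was again 0 of 10 in each, beside 6.27% of 16688 genes for O2-PBS versus RA-PBS, 0.947% for O2-IC100 versus O2-PBS and 1.56% for O2-IC100 versus RA-PBS. The comparisons share groups of animals and are not independent of each other. Only in the fit with a lens covariate (log2 of the summed lens marker CPM of each library) did members pass. These were Arntl (log2 -0.66, edgeR adjusted p = 0.0877) and Nr1d1 (log2 -0.60, adjusted p = 0.0266) for O2-IC100 versus RA-PBS. That fit keeps animal 10, and the share of all genes it called is not given here. Its covariate was also higher in RA-PBS animals 2, 3 and 4 than in the ordinary oxygen-exposed libraries.

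At an unadjusted p under 0.05 the members numbered 0, 1 and 2 of 10 with 12 animals, in the order O2-PBS versus RA-PBS, O2-IC100 versus O2-PBS and O2-IC100 versus RA-PBS. That compares with 7.12%, 16.9% and 13.2% of all tested genes. Without animal 10 they numbered 2, 1 and 4, beside 21.9%, 19.2% and 15.6% of all genes. DESeq2 and limma voom also called 0 members in every comparison, with 0, 1 and 2 members at an unadjusted p under 0.05 by either tool with 12 animals, and 3, 1 and 4 by DESeq2 with 11. The shares of all genes above are those of edgeR, and none is given for these tools. The smallest adjusted p of any member by edgeR was 0.289 with 12 animals (Nr1d1, O2-IC100 versus O2-PBS) and 0.110 with 11 (Per2, O2-IC100 versus RA-PBS).

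The data also limit how large a difference could be. With 11 animals, 25 of the 30 intervals (95% confidence, 10 genes in 3 comparisons) lay wholly within 1.5-fold in both directions, and with 12 animals 14 of 30 did. Those that reached beyond it with 11 animals were all 3 intervals of Npas2, the least abundant member, and those of Per2 and Nr1d1 for O2-IC100 versus RA-PBS. The median log2 fold change of the members was -0.05, -0.18 and -0.20 in the 3 comparisons with 11 animals, beside medians of -0.01, 0.00 and 0.02 over all tested genes.

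**Figure D2:**
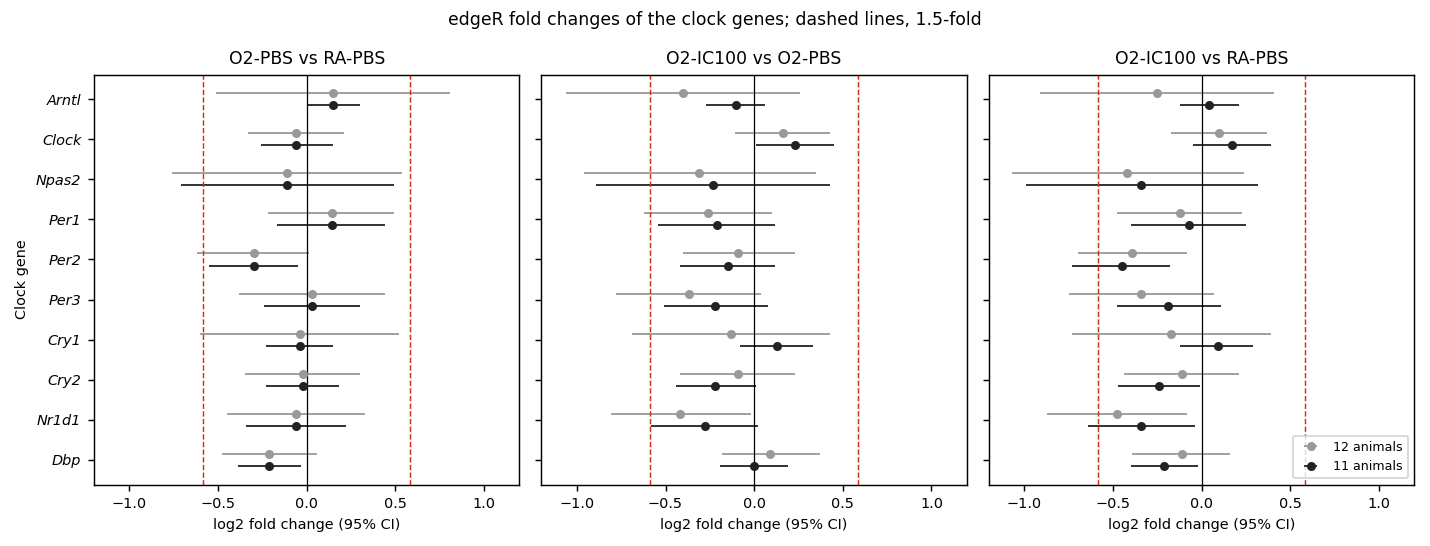
Log2 fold change with its 95% confidence interval (x axes) of each clock gene (y axis) by edgeR in the 3 comparisons, with 12 animals in grey and with 11, without O2-IC100 animal 10, in black; the dashed lines mark 1.5-fold. Grey intervals of Arntl and Cry1 are wider than the black ones, and 25 of the 30 black intervals lie between the dashed lines.

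Arntl, the activator without which the clock stops, had 86.0, 90.2, 93.8 and 102 CPM in RA-PBS animals 1 to 4. O2-PBS animals 5 to 8 had 101, 106, 104 and 101 CPM, and O2-IC100 animals 9, 11 and 12 had 97.1, 93.6 and 94.0 CPM, with 27.1 CPM in animal 10. O2-PBS retinas were thus at the top of the room-air range, overlapping it through animal 4 alone, and the 3 ordinary O2-IC100 retinas lay inside it. The difference between O2-PBS and RA-PBS was 0.15 on the log2 scale with 11 animals (SE 0.07, edgeR adjusted p = 0.231) and the same with 12 but with an SE of 0.30. Against O2-PBS, Arntl in O2-IC100 gave -0.10 (SE 0.08, adjusted p = 0.440) without animal 10 and -0.40 (SE 0.30, adjusted p = 0.477) with it. Against RA-PBS the sign turned with that 1 library, from -0.25 (SE 0.30) to 0.04 (SE 0.07).

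Clock, the partner of Arntl, had 118, 149, 134 and 163 CPM in room air, 126, 139, 136 and 140 CPM in O2-PBS and 145, 136, 160 and 166 CPM in O2-IC100. RA-PBS animals spanned almost the whole range of the gene. Without animal 10 (136 CPM), every O2-IC100 animal was above every O2-PBS animal, a difference of 0.23 on the log2 scale (SE 0.10, edgeR adjusted p = 0.253). Its interval had 1.36-fold as its upper end. Npas2, which can stand in for Clock, differed by no more than 0.42 on the log2 scale in any comparison, with SEs of 0.28 to 0.31.

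Among the repressors, Per1, which also answers light and neuronal activity, had 88.1, 118, 102 and 76.2 CPM in RA-PBS animals. Its values in O2-PBS were 125, 114, 89.7 and 92.7 CPM, and in O2-IC100 104, 81.5, 80.4 and 86.3 CPM. The 3 ranges overlapped, and its differences were 0.14 (SE 0.14), -0.21 (SE 0.15) and -0.07 (SE 0.15) on the log2 scale with 11 animals, in the order given above.

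Per2, a central brake on ARNTL and CLOCK, had the smallest adjusted p of the members in both comparisons with room air when 11 animals were used. RA-PBS animals 1, 2 and 3 had 34.7, 39.4 and 38.1 CPM and animal 4 had 25.6. O2-PBS animals had 28.8, 28.9, 28.0 and 25.9 CPM, and O2-IC100 animals had 26.1, 30.6, 24.1 and 24.4. So 3 room-air retinas stood above all 8 oxygen-exposed ones, and the fourth stood among them. Per2 in O2-PBS was 0.810 of RA-PBS (log2 -0.30, SE 0.12, edgeR adjusted p = 0.137) with 11 animals. In O2-IC100 it was 0.730 of RA-PBS (log2 -0.45, SE 0.13, edgeR adjusted p = 0.110). With 12 animals the values were -0.30 (SE 0.14, adjusted p = 0.719) and -0.39 (SE 0.14, adjusted p = 0.374). In a fit chosen after the data were seen, RA-PBS animal 4 was left out along with animal 10. The differences were then -0.42 (edgeR adjusted p = 0.00611) and -0.57 (adjusted p = 0.00394), both still short of 1.5-fold. Without RA-PBS animal 3 and animal 10 they were -0.25 (adjusted p = 0.23) and -0.42 (adjusted p = 0.175). With a Y-linked covariate and no animal 10 they were -0.19 (adjusted p = 0.429) and -0.52 (adjusted p = 0.0612). The lens covariate, with animal 10 kept, gave -0.21 (adjusted p = 0.422) and -0.35 (adjusted p = 0.092). O2-IC100 and O2-PBS differed by -0.15 (SE 0.13) with 11 animals.

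Per3 had 99.3, 134, 131 and 85.5 CPM in room air, 128, 115, 112 and 105 CPM in O2-PBS, and 102, 61.1, 93.8 and 97.8 CPM in O2-IC100. All 4 IC100-treated retinas were below all 4 placebo retinas after oxygen, by -0.37 on the log2 scale with 12 animals (SE 0.19, edgeR adjusted p = 0.320) and -0.22 with 11 (SE 0.14, adjusted p = 0.379). With a GC and length correction and no animal 10, a fit chosen after the data were seen, the difference was -0.01 (edgeR adjusted p = 0.965). Room-air values overlapped those of both groups.

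Cry1 and Cry2 encode the cryptochromes, the stronger repressors of the loop. Cry1 kept within 41.6 to 53.9 CPM in the 11 retinas, with 17.9 CPM in animal 10. Its differences with 11 animals were -0.04, 0.13 and 0.09 on the log2 scale (SE 0.09, 0.10 and 0.10), and both involving O2-IC100 were negative when animal 10 was kept (-0.13 and -0.17, SE 0.26). Cry2 had 142, 132, 123 and 102 CPM in RA-PBS, 134, 119, 116 and 122 CPM in O2-PBS and 111, 148, 101 and 102 CPM in O2-IC100. In contrast to Cry1, it was as high in animal 10 as in any other library. Without that animal Cry2 in O2-IC100 was below every O2-PBS value (log2 -0.22, SE 0.10, edgeR adjusted p = 0.272). The GC and length correction without that animal took this difference to -0.08 (adjusted p = 0.728).

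Nr1d1, the repressor of Arntl, had 153, 172, 134 and 105 CPM in RA-PBS animals and 154, 129, 123 and 135 CPM in O2-PBS animals. O2-IC100 animals had 120, 73.8, 108 and 104 CPM, each below every O2-PBS animal. The difference from O2-PBS was -0.42 on the log2 scale with 12 animals (SE 0.18, edgeR adjusted p = 0.289) and -0.28 with 11 (SE 0.14, adjusted p = 0.286). Against RA-PBS it was -0.48 (SE 0.18, adjusted p = 0.374) and -0.34 (SE 0.14, adjusted p = 0.264), with RA-PBS animal 4 inside the O2-IC100 range. O2-PBS and RA-PBS differed by -0.06 (SE 0.13) with 11 animals.

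Dbp, the output factor, was lower after oxygen in every ordinary library. RA-PBS animals had 150, 121, 124 and 122 CPM, O2-PBS animals 108, 111, 116 and 113 CPM, and O2-IC100 animals 106, 146, 113 and 113 CPM. No O2-PBS animal reached the lowest room-air value, and among O2-IC100 animals only animal 10 did. With 11 animals Dbp stood at 0.864 of RA-PBS in both O2-PBS (log2 -0.21, SE 0.08, edgeR adjusted p = 0.144) and O2-IC100 (log2 -0.21, SE 0.09, adjusted p = 0.273). Without RA-PBS animal 1, the highest library, the difference of O2-PBS from RA-PBS shrank from -0.21 to -0.13. Marker levels of other cells moved with oxygen too. The 6 Muller glia markers made up 0.381% to 0.519% of counts in RA-PBS (the top value in animal 1, also the top in Dbp), 0.310% to 0.349% in O2-PBS and 0.381% to 0.407% in O2-IC100 without animal 10. The 6 endothelial markers made up 0.0171% to 0.0259%, 0.0393% to 0.0458% and 0.0299% to 0.0336%. Every one of these markers had counts in each library, and their part in the difference in Dbp was not tested. O2-IC100 and O2-PBS were level in Dbp, at 0.00 on the log2 scale (95% interval -0.19 to 0.19) with 11 animals.

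Groups that did not overlap were counted over all genes. Between O2-PBS and RA-PBS, 1 of 10 members did not overlap (Dbp, lower), against 14.4% of tested genes with either 12 or 11 animals. Between O2-IC100 and O2-PBS the members were 3 of 10 with 12 animals (Arntl, Per3 and Nr1d1, all lower), against 20.8% of genes. With 11 animals they were 5 of 10, Clock higher and Arntl, Per3, Cry2 and Nr1d1 lower, against 35.2%. O2-IC100 and RA-PBS were separate in 0 of 10 members with 12 animals and in 1 (Dbp, lower) with 11, against 5.84% and 10.7% of genes. With 10 members, these shares were near those of all genes.

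Among the room-air retinas, 1 was picked out after the values were seen, as lowest or highest of its group in many clock genes. How often an animal is lowest or highest of its group over all tested genes was not counted. RA-PBS animal 4 was the lowest of its group in Per1, Per2, Per3, Cry2 and Nr1d1, at 0.743, 0.686, 0.703, 0.770 and 0.684 of the mean of the other 3. It was the highest in Arntl (1.13 times that mean), Clock (1.22) and Cry1 (1.24). Dbp did not follow, at 0.928 of the others, and Npas2 was level with them at 1.00. RA-PBS animal 1 was in turn the lowest of the group in Arntl, Clock and Npas2 and the highest in Cry2 and Dbp. Animal 4 was the one room-air sample with few counts from Y-linked genes (6.01 CPM, against 239 to 295 CPM in animals 1 to 3). The other libraries low in them were O2-PBS animals 5, 6 and 7 and O2-IC100 animal 10. With 1 such room-air animal, Y-linked level and animal cannot be told apart there.

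**Figure D3:**
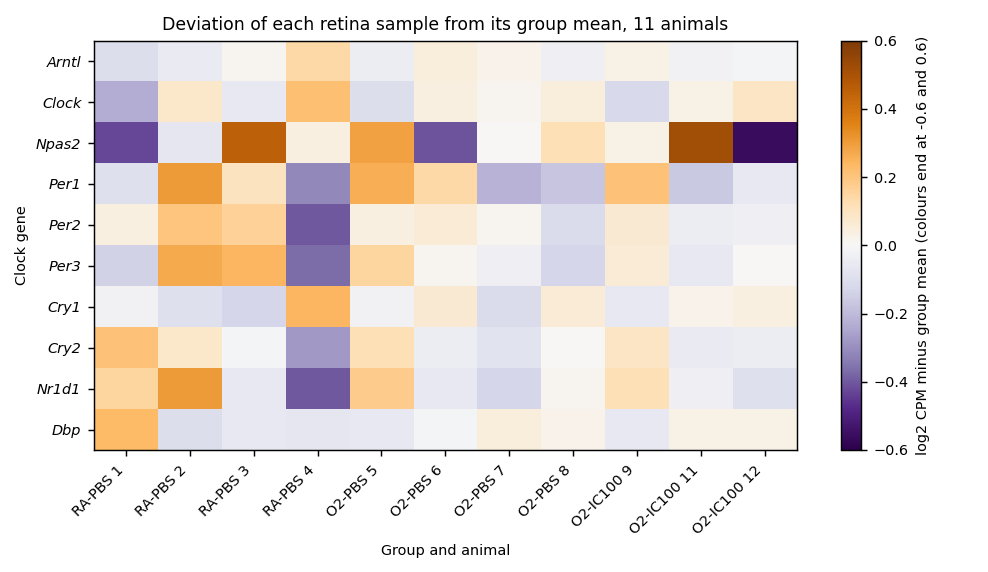
Deviation of log2 CPM from the mean of the animal's own group (colour; orange above, purple below) for the 10 clock genes (rows) in the 11 animals without O2-IC100 animal 10 (columns). RA-PBS animal 4 combines low Per1, Per2, Per3, Cry2 and Nr1d1 with high Arntl, Clock and Cry1, while the largest deviations of Npas2 belong to a gene at 1.37 to 3.77 CPM.

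Pairs of clock genes were then compared within groups, on deviations of log2 CPM from group means over the 11 animals, with two-sided exact permutation tests and adjustment over 6 pairs. Per1, whose E-box is printed above, and Per2 varied together (Pearson r = 0.76, exact permutation p = 0.00289, adjusted p = 0.0174; Spearman rho = 0.80, exact p = 0.00637, adjusted p = 0.0382). The relation stayed at r = 0.75 without the 2 animals farthest from the median of Per1. With all 12 animals it was r = 0.60 (exact permutation p = 0.0745, adjusted p = 0.149), no longer under 0.05. How often other gene pairs reach such values was not counted. A part of the promoter sites in this or the next correlations was not tested.

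Nr1d1 and Arntl, repressor and target through the kind of ROR element printed above, went in opposite directions with r = -0.80 (exact permutation p = 0.0515, adjusted p = 0.155) and rho = -0.77 (exact p = 0.0298, adjusted p = 0.0894). Without the 2 animals farthest from the median of Nr1d1, RA-PBS animals 2 and 4, r was -0.54, and with animal 10 included it was 0.56. The relation therefore rested on those animals. The other 4 pairs gave r = -0.50 (Dbp and Arntl, exact permutation p = 0.408, and r = -0.82 with p = 0.0264, adjusted p = 0.149, when animal 10 was kept), -0.40 (Per3 and Dbp, p = 0.646), -0.02 (Per2 and Dbp, p = 0.965) and 0.05 (Nr1d1 and Dbp, p = 0.945), with adjusted p of 0.816 for the first and 0.965 for the others. Their rho values were -0.26, -0.48, -0.34 and -0.20, with exact p of 0.553, 0.240, 0.379 and 0.643 and adjusted p of 0.643, 0.480, 0.569 and 0.643. Leaving out the 2 farthest animals took r in these pairs to -0.44, -0.74, -0.25 and 0.12.

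Since Dbp and Arntl stand near opposite ends of the cycle, their difference within a library was also described, as log2 CPM of Dbp minus log2 CPM of Arntl. It was 0.80, 0.42, 0.41 and 0.27 in RA-PBS animals 1 to 4 (mean 0.47 ± 0.23, SD, n = 4). In O2-PBS animals 5 to 8 it was 0.10, 0.06, 0.15 and 0.16 (mean 0.12 ± 0.05, SD, n = 4). O2-IC100 animals 9, 11 and 12 had 0.13, 0.27 and 0.27 (mean 0.22 ± 0.08, SD, n = 3), and animal 10 had 2.42. All 4 O2-PBS values were below all 4 room-air values, and the O2-IC100 values reached the lowest room-air one. Dbp by itself also separated O2-PBS from RA-PBS, as 14.4% of tested genes did in either direction, and no such share was counted over pairs of genes. Within groups, Dbp and Arntl were not clearly opposed (r = -0.50, exact permutation p = 0.408, and r = 0.10 without RA-PBS animal 1 and animal 10). No test was made of the Dbp minus Arntl difference.

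**Figure D4:**
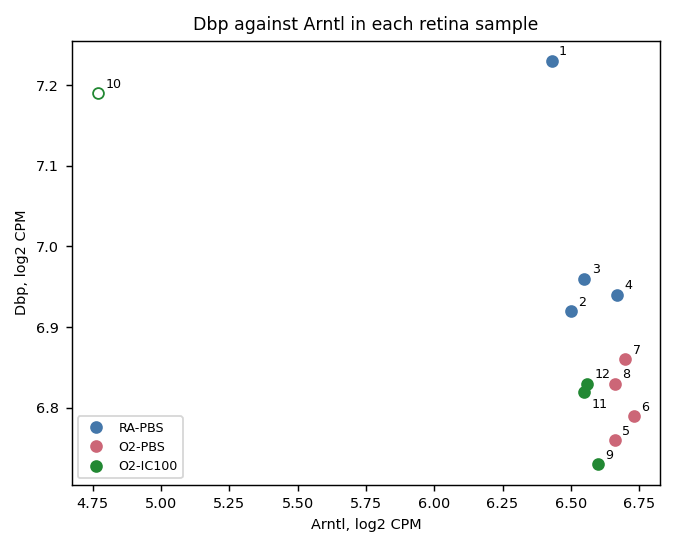
Log2 CPM of Dbp (y axis) against log2 CPM of Arntl (x axis), with each point labelled by its animal number and coloured by group; axes do not start at 0. RA-PBS animals lie above the other ordinary libraries in Dbp, and the open point, lens-rich O2-IC100 animal 10, lies far to the left, with Arntl at 27.1 CPM.

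Of 20 other clock genes (second-loop receptors, PAR bZIP factors, kinases and ubiquitin ligases among them), all 20 were tested and 0 were called in any comparison with 12 animals, where 2, 0 and 3 had an unadjusted p under 0.05 by edgeR. With 11 animals 6, 3 and 7 had, and 1 was called, Bhlhe40, which encodes a repressor that competes for E-boxes. Over all tested genes, for this list and the 3 that follow, the share at an unadjusted p under 0.05 was 7.12%, 16.9% and 13.2% with 12 animals and 21.9%, 19.2% and 15.6% with 11. The share called was 0.807%, 0.0% and 0.0% with 12 animals and 6.27%, 0.947% and 1.56% with 11. The median log2 fold changes of the list with 11 animals were 0.03, 0.00 and -0.08.

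Bhlhe40 had 49.3, 39.6, 35.8 and 33.3 CPM in RA-PBS, 64.5, 47.0, 54.1 and 55.3 CPM in O2-PBS, and 35.9, 35.0 and 35.2 CPM in O2-IC100 animals 9, 11 and 12. It fell by 0.63 on the log2 scale between O2-PBS and O2-IC100 with 11 animals (SE 0.13, edgeR adjusted p = 0.0659), and all O2-PBS animals but 1 were above every room-air animal (log2 0.48, SE 0.12, adjusted p = 0.0269, under the fold minimum). Animal 10, at 104 CPM, took the first of these to -0.07 (SE 0.33, adjusted p = 0.917). Without animal 10, the call was also lost with a Y-linked covariate (-0.75, adjusted p = 0.119) and with a GC and length correction (-0.59, adjusted p = 0.10). Of the libraries in that comparison, 3 of 4 O2-PBS and 0 of 3 O2-IC100 were low in Y-linked RNA.

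**Figure D5:**
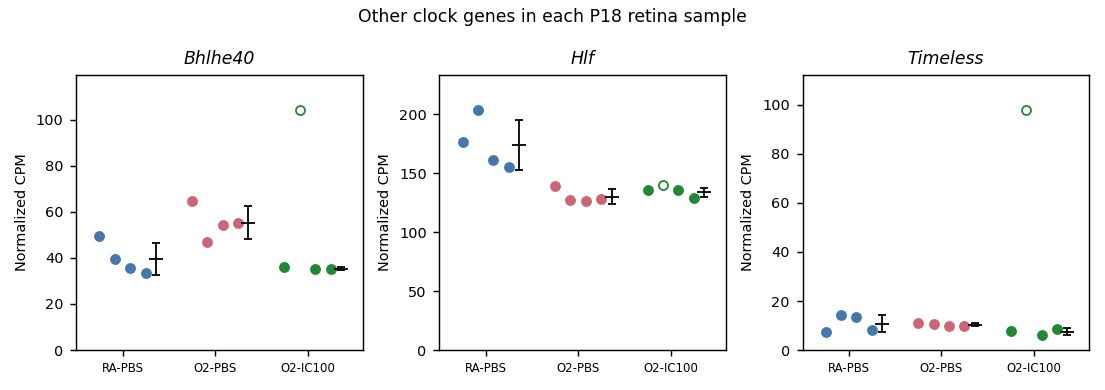
TMM-normalized CPM of Bhlhe40, Hlf and Timeless (y axes, from 0) in every animal by group (x axes), with mean ± SD in black without the open point, O2-IC100 animal 10. That animal is the highest in Bhlhe40 (104 CPM) and Timeless (97.7 CPM), and Hlf is lower in O2-PBS than in every room-air retina.

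Hlf, a D-box factor of the same PAR bZIP family as Dbp, had 176, 203, 161 and 155 CPM in RA-PBS, 139, 127, 126 and 128 CPM in O2-PBS and 136, 140, 136 and 129 CPM in O2-IC100. As with Dbp, no oxygen-exposed retina reached the lowest room-air value, here with animal 10 included. The difference of O2-PBS from RA-PBS was -0.42 on the log2 scale (SE 0.09, edgeR adjusted p = 0.00952 with 11 animals and 0.183 with 12), and that of O2-IC100 was -0.37 (SE 0.09, adjusted p = 0.0816 with 11), both smaller than 1.5-fold. A further pair of D-box factors was picked out after their values were seen. Tef, the third family member, gave -0.17 (SE 0.07, adjusted p = 0.155) and -0.16 (SE 0.07, adjusted p = 0.320) against room air. Nfil3, which represses through the same site, gave 0.36 (SE 0.11, adjusted p = 0.0555) and 0.54 (SE 0.11, adjusted p = 0.0534), in the other direction.

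Timeless had the largest difference of the list between O2-IC100 and O2-PBS with 12 animals, at 1.53 on the log2 scale (SE 0.79, edgeR adjusted p = 0.327). It rested on animal 10, which had 97.7 CPM of Timeless against 6.10 to 14.3 CPM elsewhere, and without it the difference was -0.44 (SE 0.22, adjusted p = 0.286).

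Of 11 clock output and rhythm genes, 9 were tested (not Avp and Prok2). With 12 animals 0 were called, with 0, 0 and 1 at an unadjusted p under 0.05 by edgeR. With 11 animals 2 were called between O2-PBS and RA-PBS, and 0 in the comparisons with O2-IC100, where 3 and 3 had an unadjusted p under 0.05. Drd4, the dopamine receptor of photoreceptors, rose from 195, 182, 262 and 226 CPM in room air to 402, 394, 351 and 332 CPM in O2-PBS (log2 0.77, SE 0.12, edgeR adjusted p = 0.00164). Vip, a neuropeptide of amacrine cells, fell from 14.4, 9.22, 8.71 and 13.5 CPM to 5.43, 4.38, 6.45 and 6.98 CPM (log2 -0.98, SE 0.20, adjusted p = 0.00928). With 12 animals neither was called (adjusted p = 0.803 and 0.916). Animal 10 had 56.1 CPM of Drd4 and 0.379 CPM of Vip. Aanat, the melatonin enzyme, stayed at 0.316 to 1.33 CPM outside animal 10 (9.34 CPM), and Sik1, a kinase that limits the resetting of the clock by light, gave 0.63 (SE 0.24, adjusted p = 0.234) for O2-IC100 against RA-PBS.

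Glucocorticoids and neuronal activity also move Per1 and other clock genes, so a list of targets of each was read beside them. Their part in the clock gene values was not tested. Of 10 glucocorticoid-response genes, 0 were called in any comparison with 12 animals (3, 2 and 2 at an unadjusted p under 0.05 by edgeR). With 11 animals 1 was called, between O2-PBS and RA-PBS. Tsc22d3, encoding GILZ, fell from 42.7, 29.3, 29.5 and 60.4 CPM to 21.5, 24.3, 26.9 and 26.4 CPM (log2 -0.71, SE 0.20, edgeR adjusted p = 0.0408), and adjusted p was 0.280 with 12 animals. RA-PBS animal 4, low in Per1, Per2 and Per3, was the highest library in Tsc22d3, and left out along with animal 10 it took the difference to -0.45 (adjusted p = 0.0579), under 1.5-fold and no longer called. Without animal 10, Tsc22d3 stayed called with the Y-linked covariate (-0.84, adjusted p = 0.0205) and the GC and length correction (-0.77, adjusted p = 0.0141). It was also called without RA-PBS animal 3 and animal 10 (-0.83, adjusted p = 0.0115). Cdkn1a gave 0.69 (SE 0.25, adjusted p = 0.116) between O2-PBS and RA-PBS. Sgk1 and Mt1 in O2-IC100 were dominated by animal 10, at 445 and 327 CPM, and without it gave 0.27 (SE 0.12) and -0.61 (SE 0.46) against O2-PBS.

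Of the 4 lists, the immediate early genes had the most calls between O2-PBS and RA-PBS, and no test compared the lists. Each of the 10 was above its RA-PBS level in O2-PBS, the median on the log2 scale being 0.56, and 2 were called with 12 animals (Fosb and Junb) and 5 with 11 (these with Fos, Egr2 and Nr4a1). Without animal 10, Nr4a1 (log2 0.61) came under 1.5-fold when RA-PBS animal 4 was also left out (0.50) and with the GC and length correction (0.53), and Egr2 was no longer called with the Y-linked covariate (edgeR adjusted p = 0.106). Fosb rose from 3.42, 1.93, 2.72 and 2.69 CPM to 9.41, 8.24, 9.78 and 6.76 CPM (log2 1.67, SE 0.28, edgeR adjusted p = 0.0321 with 12 animals). Junb rose from 13.0, 8.60, 14.8 and 15.0 CPM to 55.8, 26.2, 26.2 and 27.8 CPM (log2 1.40, SE 0.26, adjusted p = 0.0477 with 12 animals). Egr2 was near the floor of 3 counts in room air, at 0 to 0.158 CPM, and had 3.44, 0.678, 0.961 and 0.499 CPM in O2-PBS. O2-PBS animal 5 was the highest of its group in Junb, Egr2 and Fos (57.1 CPM of Fos, against 29.6 to 38.6 CPM in animals 6 to 8). Per1, a member with a like response to neuronal activity, gave 0.14 (SE 0.16) in the fit of 12 animals. O2-IC100 against O2-PBS gave 0 calls of 10, with 2 and 3 genes at an unadjusted p under 0.05 by edgeR with 12 and 11 animals and medians of -0.37 and -0.28. Against RA-PBS 0 were called with 12 animals (3 at an unadjusted p under 0.05), and with 11 Fosb (log2 1.00, SE 0.22, adjusted p = 0.0590) and Npas4 (log2 0.62, SE 0.16, adjusted p = 0.0810) were. The call of Npas4 was lost without animal 10 when RA-PBS animal 3 (0.57, adjusted p = 0.130) or 4 (0.55, adjusted p = 0.0417) was also left out, and with the Y-linked covariate (0.56, adjusted p = 0.105).

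The genes most like Dbp and Arntl across animals were not clock genes. Over the 11 animals and 15148 genes with a mean of at least 1 CPM, log2 CPM of Dbp was most like that of Atp6ap1, Slc35c2, Tkt, 2900011O08Rik and mt-Nd4l (r = 0.94 to 0.95), and most opposite to Tal1, Zranb3 and St8sia4 (r = -0.96 to -0.95). Arntl was most like Gm10775, Fbxo36, St6galnac2, Ctdsp1 and Arpc1b (r = 0.91 to 0.94), and most opposite to Palm, Klc2 and Npnt (r = -0.95 to -0.93). Dbp and Arntl themselves were at r = -0.66, and Arntl ranked 13400 of 15148 genes by its likeness to Dbp. These correlations run across all 3 groups, so differences between groups enter them, and they are given as a description.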

How the data were processed

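RNA from P18 retinas of 12 mice was measured by RNA-seq, and each sample's group came from its label. The authors extracted RNA, selected poly-A RNA and sequenced it as 150 bp paired-end reads, aligned the reads to GRCm39_104 with Kallisto and summed transcripts per gene with tximport. The deposited values are therefore expected counts per gene, not scaled to library size, and 42.2% of them are not whole numbers. The submitters' processing notes also name DESeq2.

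The members and lists were chosen with earlier results of these data known. Counts were rounded and fitted in R 4.3.3 with edgeR 4.0.16 (TMM, filterByExpr, robust quasi-likelihood F test, two-sided, 3 groups without covariate), with p-values adjusted by the Benjamini-Hochberg method across every tested gene, and the study's thresholds were used. The fit of 12 animals is the main one, and the same fit without O2-IC100 animal 10 stands beside it. CPM are TMM-normalized. RPKM use exon lengths of GENCODE M21, matched by gene, whose build (GRCm38) differs from that of the counts. Members were all named. From the other lists, the genes named passed the thresholds in either fit or had the 2 largest differences in a comparison, except Tef and Nfil3, picked after their values were seen, and 1 gene so chosen is not reported here. Likeness used Pearson r. Alternatives were DESeq2 1.42.0, limma voom 3.58.1, other scalings, filters and covariates, the 2 groups alone, and each animal left out. The floor of 3 counts was 1.23e-05% to 2.01e-05% of a library, and covers counting error only. Labels do not say whether samples are 1 or both retinas or which mice were littermates. The p-values treat the animals as independent, which is not known. The test was checked on counts simulated without animal 10 and with 1 fixed spread for all genes, so the check does not cover the 12-animal fit. It recovered 98% of 100 genes changed 2-fold and 100% of 100 changed 4-fold, with 8 false calls among 206.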

Additional observations from a re-analysis of the deposited data

Results flagged for a closer look

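Dixon's test for a single far value was applied to the 10 members in each of the 3 groups of 4 animals, 30 groups in all, and chance flags about 1 in 20 groups. It marked 3 values. Arntl in O2-IC100 animal 10 was at 27.1 CPM, below 93.6 to 97.1 CPM in the other 3, and the gap was 0.949 of the range of the group. Cry1 in the same animal was at 17.9 CPM, below 46.6 to 49.8 CPM, with a gap of 0.902 of the range. That library had 58.9% of its counts from lens markers and 0.348% from rod markers. Dbp in RA-PBS animal 1 was at 150 CPM, above 121 to 124 CPM in the other 3, with a gap of 0.886 of the range. RA-PBS animal 1 was the library with the fewest genes with a count (17658) and, at 0.00348%, the room-air library with the least lens RNA.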

How the results depend on the processing

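No paired analysis was possible because the animals are numbered 1 to 12 across the groups, which share no replicate number. The count of members called stayed at 0 of 10 in every comparison and alternative run but 1, in which the lens covariate gave 2 members called for O2-IC100 versus RA-PBS (Arntl and Nr1d1). Other clock genes called were then 2 for O2-PBS versus RA-PBS (Timeless among them) and 5 for O2-IC100 versus RA-PBS (Ciart, Rorb, Usp2 and Timeless among them). The share of all genes called in that fit is not given here, so these counts have no rate beside them. With no animal 10, other clock genes called for O2-IC100 versus O2-PBS were 1 (Bhlhe40) by edgeR, by DESeq2, and when RA-PBS animal 1, 3 or 4 was left out as well, 0 with the Y-linked covariate and 0 with the GC and length correction, and 0 to 1 over all fits without 1 animal. Bhlhe40 was also the 1 called for O2-PBS versus RA-PBS without RA-PBS animal 1 and animal 10. For O2-IC100 versus RA-PBS, 1 was called with a Y-linked covariate and no animal 10 (Nfil3) and 2 without RA-PBS animal 4 and animal 10 (Nfil3 and Timeless). GC and length correction without animal 10, chosen after seeing the data as were the fits without RA-PBS animal 3 or 4, took Per2 in O2-PBS versus RA-PBS to -0.38 (adjusted p = 0.0164), under the fold minimum. RA-PBS animal 3, not animal 1 as the plan had assumed, was the other library with most lens RNA.

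Signs that turned were of log2 fold changes that did not pass the thresholds with 12 animals, and the values are given in brackets. With the lens covariate, the sign turned in Arntl (-0.42), Per3 (-0.13) and Cry2 (0.07) for O2-PBS versus RA-PBS, in Cry1 (0.02), Mt1 (-0.48), Timeless (-0.23) and Aanat (-0.29) for O2-IC100 versus O2-PBS, in Npas4 (-0.26) for O2-IC100 versus RA-PBS. With RA-PBS animal 1 and animal 10 left out, the sign turned in Arntl (0.01), Cry1 (0.08), Mt1 (-0.30), Sgk1 (-0.24), Timeless (-0.65) and Aanat (-0.31) for O2-IC100 versus RA-PBS, in Per3 (-0.02) and Cry2 (0.05) for O2-PBS versus RA-PBS, in Cry1 (0.13), Dbp (-0.00), Mt1 (-0.61), Timeless (-0.44) and Aanat (-0.80) for O2-IC100 versus O2-PBS. With DESeq2 and no animal 10, the sign turned in Arntl (0.03), Cry1 (0.07), Mt1 (-0.19), Sgk1 (-0.25), Timeless (-0.53) and Aanat (-0.54) for O2-IC100 versus RA-PBS and Cry1 (0.11), Dbp (-0.02), Mt1 (-0.63), Timeless (-0.45) and Aanat (-0.82) for O2-IC100 versus O2-PBS. With a Y-linked covariate and no animal 10, the sign turned in Arntl (0.09), Cry1 (0.14), Sgk1 (-0.14), Timeless (-0.58) and Aanat (-0.69) for O2-IC100 versus RA-PBS, in Cry1 (0.23), Dbp (-0.05), Timeless (-0.63) and Aanat (-1.38) for O2-IC100 versus O2-PBS, in Cry2 (0.07) and Nr1d1 (0.08) for O2-PBS versus RA-PBS. With RA-PBS animal 4 and animal 10 left out, the sign turned in Arntl (0.09), Cry1 (0.18), Sgk1 (-0.13), Timeless (-0.61) and Aanat (-0.78) for O2-IC100 versus RA-PBS, in Clock (0.02), Per3 (-0.08) and Cry1 (0.05) for O2-PBS versus RA-PBS, in Cry1 (0.13), Dbp (-0.00), Mt1 (-0.61), Timeless (-0.44) and Aanat (-0.80) for O2-IC100 versus O2-PBS. With the GC and length correction and no animal 10, the sign turned in Arntl (0.02), Per1 (0.02), Cry1 (0.06), Mt1 (-0.18), Sgk1 (-0.30), Timeless (-0.41) and Aanat (-0.57) for O2-IC100 versus RA-PBS, in Per2 (0.06), Cry1 (0.19), Dbp (-0.01), Mt1 (-0.63), Timeless (-0.27) and Aanat (-0.81) for O2-IC100 versus O2-PBS, in Per3 (-0.05) for O2-PBS versus RA-PBS. With RA-PBS animal 3 and animal 10 left out, the sign turned in Arntl (0.04), Cry1 (0.04), Mt1 (-0.22), Sgk1 (-0.31), Timeless (-0.40) and Aanat (-0.23) for O2-IC100 versus RA-PBS, in Npas2 (0.07) for O2-PBS versus RA-PBS, in Cry1 (0.12), Dbp (-0.01), Mt1 (-0.62), Timeless (-0.45) and Aanat (-0.81) for O2-IC100 versus O2-PBS. With upper-quartile scaling, the sign turned in Cry1 (0.01) and Cry2 (0.02) for O2-PBS versus RA-PBS. With limma voom, the sign turned in Aanat (-0.31) for O2-IC100 versus O2-PBS.

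Leaving out 1 animal at a time, ranges that crossed 0 were Arntl from -0.37 to 0.04, Cry1 from -0.28 to 0.09, Mt1 from -0.17 to 1.62, Sgk1 from -0.24 to 1.51, Timeless from -0.51 to 1.80 and Aanat from -0.51 to 1.98 for O2-IC100 versus RA-PBS, Clock from -0.14 to 0.02, Npas2 from -0.24 to 0.06, Per3 from -0.08 to 0.13, Cry1 from -0.08 to 0.05, Cry2 from -0.11 to 0.04 and Nr1d1 from -0.18 to 0.05 for O2-PBS versus RA-PBS, Cry1 from -0.24 to 0.13, Dbp from -0.00 to 0.15, Mt1 from -0.61 to 1.13, Bhlhe40 from -0.63 to 0.08, Timeless from -0.44 to 1.87 and Aanat from -0.80 to 1.70 for O2-IC100 versus O2-PBS. Without animal 10 the sign turned in Arntl, Sgk1, Mt1, Timeless, Aanat, Cry1 and Dbp, and RA-PBS animals 1, 2, 3 or 4, O2-PBS animals 5, 6 or 7 or O2-IC100 animals 9, 11 or 12 turned it in Clock, Npas2, Per3, Cry1, Cry2, Nr1d1 or Bhlhe40. Over all 12 animals, r was 0.56 for Nr1d1 and Arntl, 0.34 for Per2 and Dbp, -0.47 for Nr1d1 and Dbp, 0.60 for Per1 and Per2, -0.82 for Dbp and Arntl (exact permutation p = 0.0264, adjusted p = 0.149) and -0.72 for Per3 and Dbp (p = 0.0705). Without RA-PBS animal 1 and animal 10, it was 0.10 for Dbp and Arntl and -0.61 for Nr1d1 and Dbp (exact permutation p = 0.0139, adjusted p = 0.0417), the sign opposite to that of genes in like phase. Without RA-PBS animal 4 and animal 10, it was -0.93 for Per3 and Dbp (exact permutation p = 0.0116, adjusted p = 0.0382), -0.74 for Per2 and Dbp (p = 0.0278, adjusted p = 0.0556) and -0.28 for Nr1d1 and Dbp. The cause of these changes was not tested. Depth limits Npas2 (1.37 to 3.77 CPM), and the smallest group has 3 animals once animal 10 is left out.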

Other observations

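The lens-rich library, O2-IC100 animal 10, did not have less of every clock gene. Relative to the mean of O2-IC100 animals 9, 11 and 12, it held 27.1 against 94.9 CPM of Arntl, 17.9 against 48.5 CPM of Cry1, 61.1 against 98.0 CPM of Per3 and 73.8 against 110 CPM of Nr1d1. Dbp (146 against 111 CPM), Cry2 (148 against 104 CPM) and Per2 (30.6 against 24.9 CPM) were higher in it, and Clock (136 against 157 CPM) and Per1 (81.5 against 90.3 CPM) were closer to the others. It is 1 library, and no comparison was made of it with lens tissue.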
